A study of Homo sapiens with 10 samples.

Results

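The loci of 5 genes of T-cell acute lymphoblastic leukaemia were examined, namely TAL1, STIL, LMO1, LMO2 and LYL1. Each gene was given 1 window on hg19, and every region of the peak lists that shared at least 1 bp with a window was taken: chr1:47640000-47705000 for TAL1 (65 kb), chr1:47710000-47785000 for STIL (75 kb), chr11:8200000-8340000 for LMO1 (140 kb), chr11:33840000-33980000 for LMO2 (140 kb) and chr19:13204000-13219000 for LYL1 (15 kb). The windows total 435 kb and held 47 of the 121294 listed regions. All data come from RPMI-8402, an established human line of this leukaemia, cultured without any further treatment named in the labels. CUT&RUN, in which an antibody guides a nuclease to its target so that nearby DNA is released and sequenced, was done for MYCN (set A), H3K4me3 (set B), MYC, H3K27ac and H3K4me1 (set C) and MYC again (set D). These 6 libraries have a peak list here. The 4 control IgG libraries were not analysed here. It is 1 cell line, and marker genes of its cell type were not analysed here. Every target except MYC had a single library, so no value below has a replicate error and no difference was tested.

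TAL1 and LYL1 are closely related basic helix-loop-helix transcription factors, which bind E-box DNA as partners of E proteins. LMO1 and LMO2 are LIM-only proteins that bind no DNA themselves and bridge TAL1 or LYL1 to LDB1 and GATA factors. TAL1, LYL1 and LMO2 act in blood stem and progenitor cells. Misplaced expression of these factors or of LMO1 in T-cell precursors is a well-known driver of this leukaemia. STIL encodes a centriole duplication protein, and a deletion on chromosome 1 that fuses the STIL promoter to TAL1 is a recurrent lesion. RPMI-8402 is known for that deletion and for a translocation that places LMO1 beside the T-cell receptor delta locus. Peak positions were called on the reference chromosomes, where rearranged and intact alleles are not separated.

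The RefSeq promoter table (GRCh38.p14) held entries for 4 of the 5 members, 5 entries in all, with 2 starts for TAL1 and no entry for LMO2. The 250 bases before the start are shown for the first TAL1 entry, LYL1, STIL and LMO1, since the results below turn on whether H3K4me3, H3K27ac and MYC lie at these genes. They are written 5′ to 3′ on the gene's strand. Capitals mark an E-box (CANNTG, its own reverse complement) or GATAA on either strand, read as TTATC on the other.
TAL1, GRCh38.p14 chr1:47232336-47232585, minus strand: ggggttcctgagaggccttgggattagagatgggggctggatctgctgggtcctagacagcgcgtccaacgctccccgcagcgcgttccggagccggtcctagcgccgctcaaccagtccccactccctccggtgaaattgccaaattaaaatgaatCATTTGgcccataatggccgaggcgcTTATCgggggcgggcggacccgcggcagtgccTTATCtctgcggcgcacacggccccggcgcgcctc
LYL1, GRCh38.p14 chr19:13102859-13103108, minus strand: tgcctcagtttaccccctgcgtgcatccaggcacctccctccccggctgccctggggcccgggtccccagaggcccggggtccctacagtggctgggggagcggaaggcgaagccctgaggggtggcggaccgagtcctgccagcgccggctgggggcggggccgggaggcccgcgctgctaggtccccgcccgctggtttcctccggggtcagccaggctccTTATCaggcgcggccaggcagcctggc
STIL, GRCh38.p14 chr1:47314148-47314397, minus strand: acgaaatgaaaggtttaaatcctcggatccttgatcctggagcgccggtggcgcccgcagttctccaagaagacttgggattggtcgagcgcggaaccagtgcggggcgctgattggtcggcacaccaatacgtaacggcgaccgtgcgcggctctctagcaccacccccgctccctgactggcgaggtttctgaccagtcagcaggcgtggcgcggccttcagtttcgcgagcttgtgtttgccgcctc
LMO1, GRCh38.p14 chr11:8268788-8269037, minus strand: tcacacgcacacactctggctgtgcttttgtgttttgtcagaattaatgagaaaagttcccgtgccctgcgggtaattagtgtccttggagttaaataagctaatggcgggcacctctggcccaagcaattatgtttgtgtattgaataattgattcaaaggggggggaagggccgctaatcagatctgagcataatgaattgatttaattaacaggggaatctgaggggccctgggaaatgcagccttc

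GRCh38 positions are not comparable with the hg19 positions of the peaks, so these sequences were matched to the genes by symbol and not to single regions. The MYC E-box CACGTG, searched on both strands, occurred in none of the 5 entries, against 6.34% of all 35116 promoter entries of that length. CANNTG, of which CACGTG is a special case, occurred once, as CATTTG 93 bases before the TAL1 start, against 61.8% of all entries with at least 1 match. GATAA occurred at 67 and 35 bases before that start and at 27 bases before the LYL1 start, against 20.4% of all entries. The other TAL1 entry, STIL and LMO1 held none of the 3 motifs. G and C made up 75.2% of the LYL1 bases, 64.8% of the first TAL1 entry, 61.6% of STIL and 45.6% of LMO1, with a median of 58% over all entries. LMO1 held 5 CG dinucleotides, STIL 26, the first TAL1 entry 24 and LYL1 19, with a median of 11. A motif match describes the letters in this stretch only.

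The 5 windows held 10 H3K4me3, 10 H3K27ac and 15 H3K4me1 regions, 7 MYC regions of set C, 5 MYC peaks of set D and 0 MYCN peaks. H3K4me3 marks active promoters, H3K27ac active promoters and enhancers, and H3K4me1 mostly enhancers and promoter flanks. At the density of each whole list, 435 kb would hold 2.04, 5.83, 5.83, 1.40, 2.66 and 0.132 regions in the same order. For MYCN that is fewer than 1 peak, so a count of 0 says little. The windows were drawn around genes, and no other gene windows were set beside them. Of the 10 H3K4me3 regions, 5 came from the LYL1 window and 0 from that of LMO2. LYL1 held 15 of the 47 regions in the shortest window, LMO1 held 15, LMO2 held 9, and TAL1 and STIL held 4 each. The lists give positions alone, so depth is unknown and presence in a list is not an amount.

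**Figure D1:**
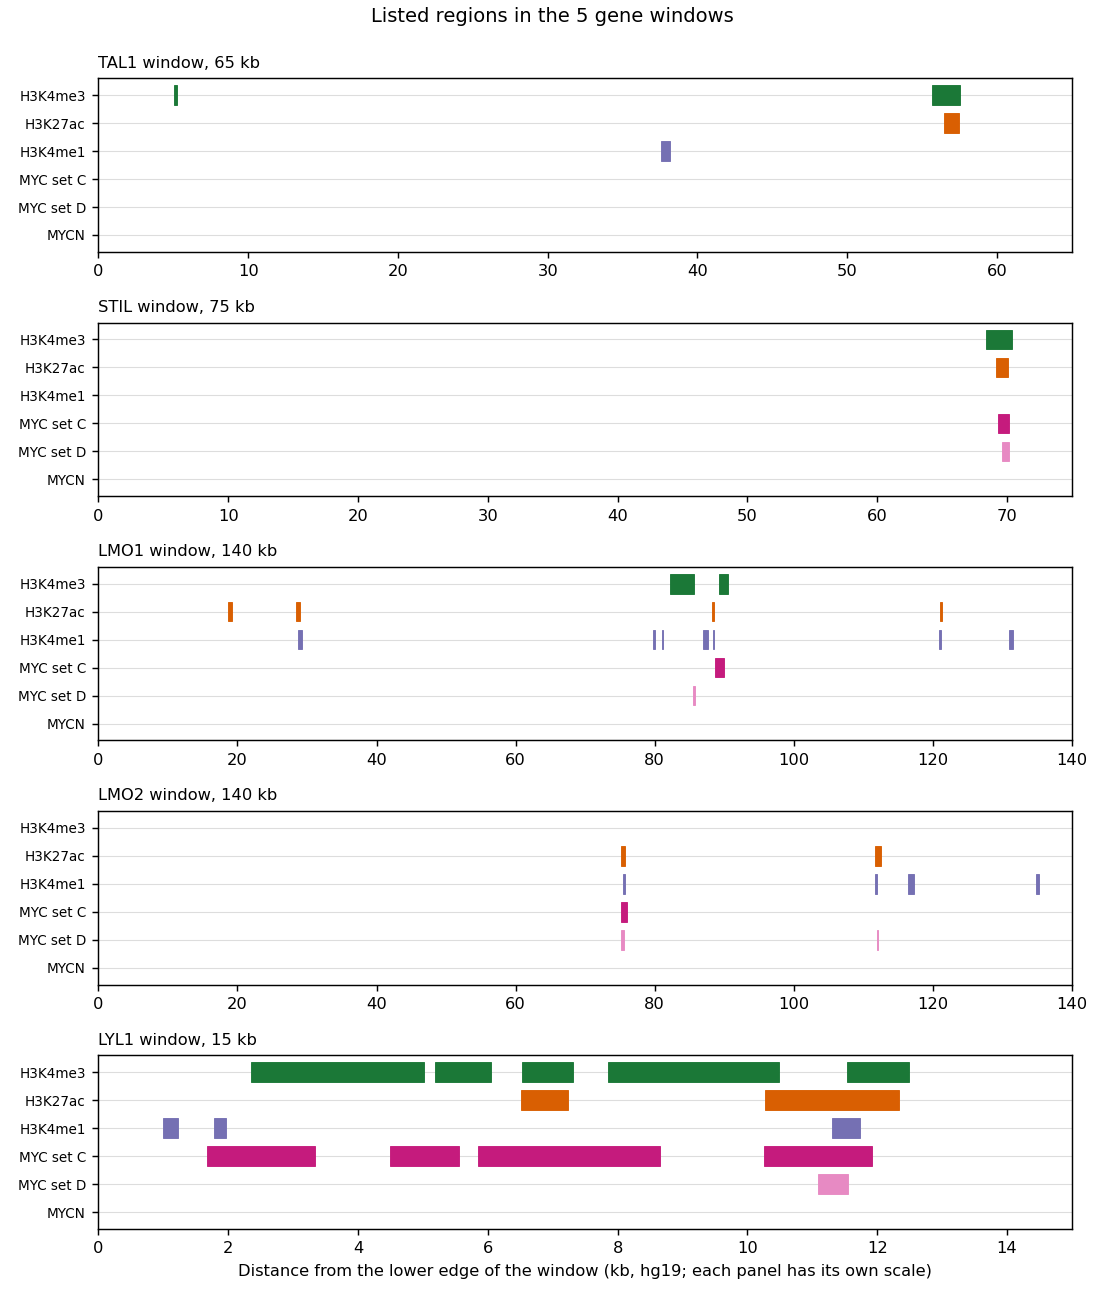
Listed regions in the windows of TAL1, STIL, LMO1, LMO2 and LYL1, with the distance from the lower edge of the window in kb on the x axis and 1 row for each of the 6 lists; bars are regions to scale and each panel has its own scale. TAL1 has no MYC row filled, LMO2 has no H3K4me3, and LYL1 is covered along most of its length.

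An element is a stretch of touching or overlapping regions of any list, and the widest in each window is called its main element. The main elements of the 5 windows differed in their combination of lists. How often 5 elements taken elsewhere would all differ was not tested. The main TAL1 element had H3K4me3 with H3K27ac, a combination found at 1.06% of the 64162 elements of the series. That of STIL added MYC of both sets (5.41% of elements). That of LMO1 had H3K4me3 with MYC of set D and no H3K27ac (1.53%), and another LMO1 element had H3K4me3 with MYC of set C. That of LMO2 had H3K27ac, H3K4me1 and MYC of set D without H3K4me3 (3.89%). Another LMO2 element had these lists and MYC of set C (1.51%). The main LYL1 element had 5 of the 6 lists (1.56%). Elements of at least 5 lists made up 2.49% of all elements and 1 of the 20 in the windows.

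At TAL1, the basic helix-loop-helix factor itself, the main element was an H3K4me3 region at chr1:47695679-47697558, 1880 bp wide, wider than 71.6% of that list. An H3K27ac region at chr1:47696490-47697449 (960 bp) lay wholly inside it, toward its upper end. No MYC region of either list touched it. Among all 9176 H3K4me3 regions that meet H3K27ac, 11.5% had no MYC of either list, and among the 3425 at least as wide as the TAL1 region the share was 4.06%. On the reference chromosome the nearest MYC was 81.7 kb away, at STIL, and the distance on a rearranged allele was not determined. A second H3K4me3 region at chr1:47645044-47645226 was 183 bp wide, narrower than most of its list (2.82% were narrower), and met no other list. H3K4me1 had 1 region, at chr1:47677565-47678143 (579 bp, wider than 82.0% of its list), which also met no other list. TAL1 lies between PDZK1IP1 and STIL in RefSeq gene order, and which of these genes each outer region belongs to was not determined, since an hg19 annotation was not used here.

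At STIL, the centriole gene whose promoter is fused to TAL1 in part of these leukaemias, a single element held everything listed. Its H3K4me3 region at chr1:47778392-47780360 was 1969 bp wide, close to the 1880 bp at TAL1. H3K27ac at chr1:47779193-47780059 (867 bp), MYC of set C at chr1:47779291-47780172 (882 bp) and MYC of set D at chr1:47779621-47780127 (507 bp) all lay inside it. The MYC peak of set D lay wholly within that of set C and shared 439 bp with H3K27ac. The MYC region of set C was narrow for its list (20% were narrower), and that of set D was above the middle of its list (62.3% were narrower). By reference position, the STIL and TAL1 windows thus shared acetylated H3K4me3 of like width and differed in MYC. It was present in both lists at STIL and in neither at TAL1. Rearranged and intact alleles are not separated, so whether MYC lies beside TAL1 on an allele with the deletion was not determined. H3K4me1 was not listed in the STIL window. The nearest MYCN peak to either gene was at chr1:47799472-47800373 (902 bp), 14.5 kb above the STIL window.

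Between these elements, chr1:47697559-47778391, no list had a region over 80.8 kb. Of 64139 such empty intervals in the series, 10.8% were at least as long, and intervals at least that long made up 67.3% of the span examined. An interval of this length without peaks is therefore common by bases. Below the TAL1 window's first region the empty interval was longer, 148 kb. Whether the interval between TAL1 and STIL is present on every allele of this line was not tested, since peak lists carry no copy number.

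**Figure D2:**
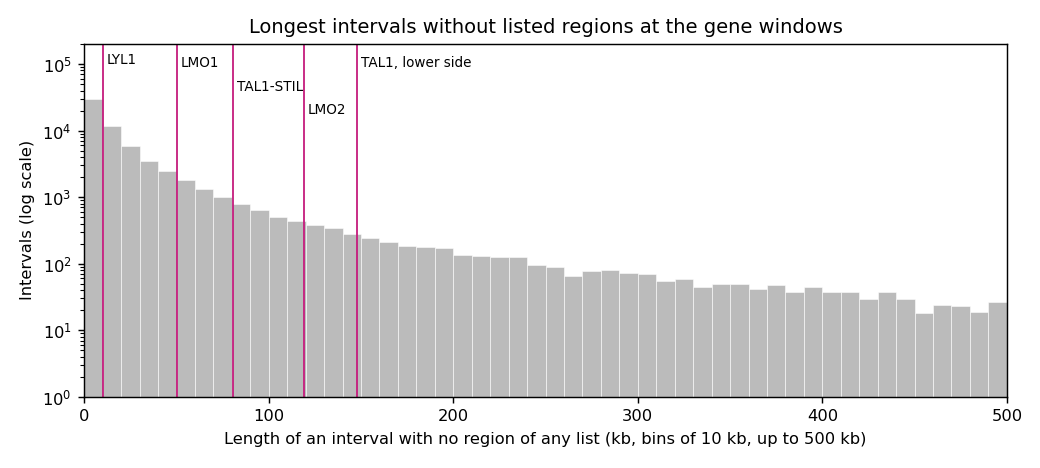
Number of intervals without a region of any list (y axis, log scale) by length in kb (x axis, up to 500 kb, bins of 10 kb), with a line for the longest interval at each window. The interval from TAL1 to STIL is 80.8 kb long, shorter than the 119 kb at LMO2 and the 148 kb below TAL1.

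LMO1, the LIM-only gene moved by translocation in this line, had H3K4me3 regions that shared no base with H3K27ac. The wider of its 2 H3K4me3 regions, at chr11:8282163-8285669, measured 3507 bp and was wider than 96.9% of the list. The other, at chr11:8289232-8290609, measured 1378 bp, near the middle of the list (51.5% were narrower). Neither met H3K27ac. Of the 432 H3K4me3 regions at least as wide as the wider one, 11.8% lacked H3K27ac, the share against which this region stands. H3K4me3 came from set B and H3K27ac from set C, so the marks were not read from 1 library. MYC was split between the lists here. The set D peak at chr11:8285491-8285743 (253 bp) shared 179 bp with the upper end of the wide region, and the set C region at chr11:8288685-8289915 (1231 bp) shared 684 bp with the other one. No MYC region in the LMO1 window was in both lists. Elements of H3K4me3 with MYC of set C alone were 0.156% of all elements, and those of H3K4me3 with MYC of set D alone 1.53%. The first of these combinations rests on the rule of at least 1 shared bp. An H3K27ac region ended at chr11:8288501, close below the set C MYC region that starts at chr11:8288685.

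The 3562 bp between the LMO1 H3K4me3 regions held H3K4me1 and H3K27ac. H3K4me1 lay there at chr11:8286945-8287635 (691 bp, wider than 88.1% of its list) and at chr11:8288346-8288571 (226 bp). H3K27ac lay there at chr11:8288268-8288501 (234 bp), which shared 156 bp with the narrower H3K4me1 region. The narrower H3K4me1 region and this H3K27ac region were outside the rule for named regions and are given because they lie in this gap. Elsewhere in the window the widest regions of these marks were H3K27ac at chr11:8218679-8219225 (547 bp), chr11:8228449-8228942 (494 bp) and chr11:8320985-8321347 (363 bp), and H3K4me1 at chr11:8228727-8229261 (535 bp) and chr11:8330999-8331527 (529 bp). In all, 3 of the 4 H3K27ac regions at LMO1 met H3K4me1, against 45.3% of the whole H3K27ac list, and 0 met MYC, against 34.6%. Of its 7 H3K4me1 regions, 3 met H3K27ac, against 50.4% of that list, and the other 4 stood alone.

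LMO2, the LIM-only partner of TAL1 in blood stem cells, had no H3K4me3 region in 140 kb, and the nearest was 43.9 kb below the window. Of all stretches of that length, 31.5% held H3K4me3. The window had instead 2 acetylated elements with H3K4me1 and MYC. In the first, MYC of set C at chr11:33915088-33915950 (863 bp) enclosed MYC of set D at chr11:33915223-33915605 (383 bp), H3K27ac at chr11:33915106-33915729 (624 bp) and H3K4me1 at chr11:33915432-33915768 (337 bp). This combination of lists was found at 1.51% of elements. Of the 1789 MYC regions of set C that met set D, H3K27ac and H3K4me1, 49.9% had no H3K4me3, so the lack of H3K4me3 at such a MYC site was ordinary. In the second element, H3K27ac at chr11:33951671-33952539 (869 bp) held H3K4me1 at chr11:33951736-33952033 (298 bp) and a MYC peak of set D at chr11:33951976-33952168. That peak was 193 bp wide, among the narrowest of its list (2.21% were narrower), and set C had no region there. The remaining H3K4me1 regions were at chr11:33956498-33957250 (753 bp) and chr11:33974801-33975217 (417 bp), and met no other list. On the lower side, no region was listed over 119 kb, chr11:33796196-33915087, which takes in the first 75.1 kb of the LMO2 window.

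LYL1, the close relative of TAL1, had the densest marking of the 5 by share of its window, which is also the shortest. In covered bases it was not the highest for H3K4me1 (824 bp, against 2703 bp at LMO1). Nor was it for MYC of set D (466 bp, against 576 bp at LMO2). One element of 10823 bp, chr19:13205673-13216495, was the 11th widest of the 64162 elements and held every list except MYCN. H3K4me3 covered 52.8% of the window, MYC of set C 48.0%, H3K27ac 18.6%, H3K4me1 5.49% and MYC of set D 3.11%. Over the whole span the shares were 0.668%, 0.417%, 0.877%, 0.540% and 0.297%. When the chromosomes were divided into 196677 stretches of 15 kb, 7 were covered by H3K4me3 at least as much, 34 by MYC of set C, 256 by H3K27ac, 5698 by H3K4me1 and 8057 by MYC of set D. The LYL1 window is short and drawn around the gene, whereas these stretches fall anywhere. These are 0.00356% of the stretches for H3K4me3, 0.0173% for MYC of set C, 0.130% for H3K27ac, 2.90% for H3K4me1 and 4.10% for MYC of set D.

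**Figure D3:**
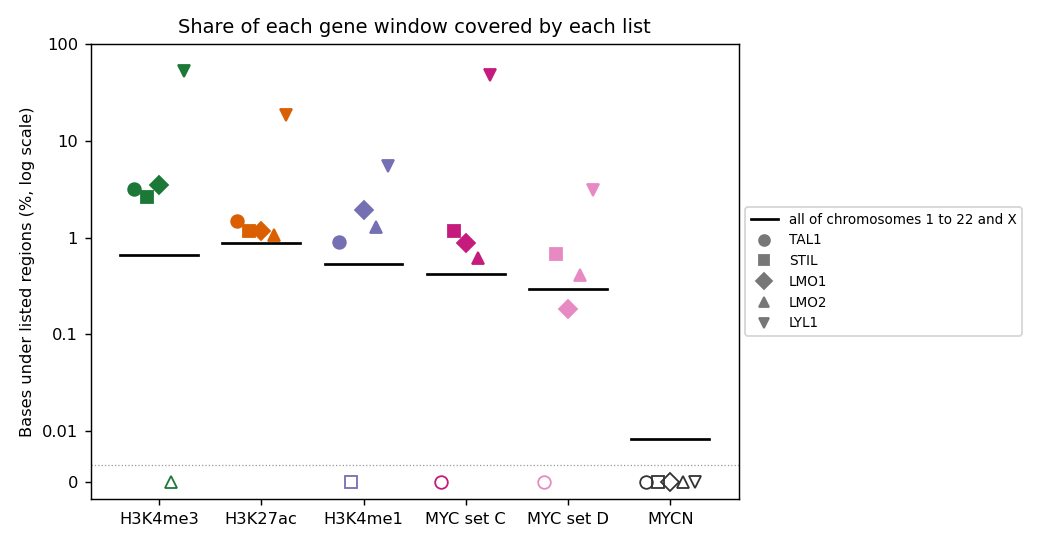
Bases under listed regions as a percentage of each window (y axis, log scale, with 0 drawn as open symbols below the dotted line) for each list (x axis); symbols are the 5 genes, and black lines give the share over chromosomes 1 to 22 and X. As a share of its window, the shortest of the 5, LYL1 is highest in 5 lists, with 52.8% under H3K4me3. All windows are at 0 for MYCN.

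The LYL1 H3K4me3 regions ran at chr19:13206348-13209018 (2671 bp), chr19:13209195-13210056 (862 bp), chr19:13210521-13211320 (800 bp), chr19:13211854-13214481 (2628 bp) and chr19:13215530-13216495 (966 bp). Gaps of 176, 464, 533 and 1048 bp separated them. The first 4, joined across gaps of at most 1 kb, made a domain of 8134 bp that ranked 8th of 11978. H3K27ac did not fill this domain. It had a region of 717 bp at chr19:13210515-13211231 over the third H3K4me3 region, and one of 2066 bp at chr19:13214279-13216344, wider than 98.9% of its list, which ran from the end of the fourth into the fifth. The H3K4me3 regions nearest the lower edge, of 2671 and 862 bp, met no H3K27ac. Whether each region of this window belongs to LYL1 or to its neighbour NFIX or TRMT1 was not determined.

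MYC at LYL1 depended on the list. Set C had regions at chr19:13205673-13207337 (1665 bp), chr19:13208501-13209558 (1058 bp), chr19:13209852-13212652 (2801 bp) and chr19:13214252-13215925 (1674 bp). The third of these ranked 227th by width in a list of 9498. All 5 H3K4me3 regions met MYC of set C. Set D had 1 peak, at chr19:13215083-13215548 (466 bp), wholly inside both the last set C region and the wide H3K27ac region, and it shared 19 bp with the last H3K4me3 region. It lay in the gap of 1048 bp above the domain of 8134 bp, and so outside that domain at the join of 1 kb. Joined within 3 kb, the domain took in this gap, measured 10148 bp and held the peak. Of the 1124 H3K4me3 domains of at least 3 kb joined within 1 kb, 8.72% had no MYC of set D, which describes LYL1 at that join only. Set C came from SEACR and set D from MACS2, and set and caller cannot be told apart. H3K4me1 sat at the borders, at chr19:13205003-13205224 (222 bp), chr19:13205787-13205960 (174 bp) and chr19:13215301-13215728 (428 bp).

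**Figure D4:**
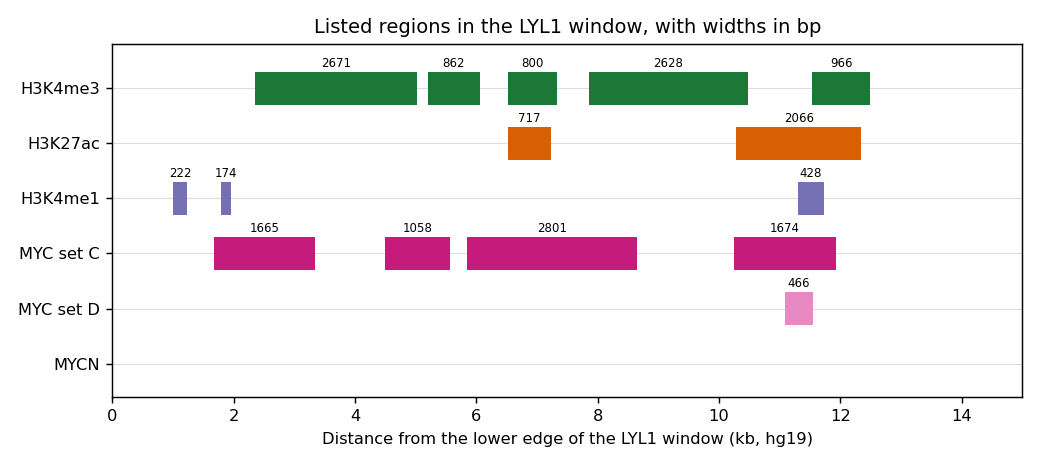
The LYL1 window with the distance from its lower edge in kb (x axis) and 1 row for each list; numbers are widths in bp. The 5 H3K4me3 regions and 4 MYC regions of set C fill the middle of the window, and the single MYC peak of set D, 466 bp wide, lies at the upper side.

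Joined across gaps of up to 12500 bp, H3K27ac at LYL1 was part of a cluster of 65831 bp at chr19:13162039-13227869, the 39th longest of 25742. It held 8 H3K27ac, 8 H3K4me3 and 10 H3K4me1 regions with 6 MYC regions from each list, and 0 MYCN peaks. This cluster runs past the LYL1 window on both sides. LYL1 lies between NFIX and TRMT1 in RefSeq gene order, and the hg19 borders of these neighbours were not determined. With a join of 5 kb the cluster at LYL1 shrank to 5830 bp. At LMO1 the longest cluster was 10264 bp (rank 4075), made of 2 regions of 547 and 494 bp, and with a join of 5 kb it fell apart. TAL1, STIL and LMO2 had single H3K27ac regions of at most 960 bp.

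Over the windows together, 8 of 10 H3K4me3 regions met MYC of either list (95% exact Clopper-Pearson interval 44.4 to 97.5%), against 76.7% of the whole list. The exceptions were both at TAL1. Taken alone, MYC of set D was met by 3 of the 10 (6.67 to 65.2%), against 72.3% of the list, which is above that interval. However, 4 of the 10 were the LYL1 regions that join into 1 domain without MYC of set D. They are not separate observations, so the interval is too narrow and is not a test. MYC of set C alone was met by 7 (34.8 to 93.3%), against 47.9% of the list. By the centre of the H3K4me3 region, 2 lay in MYC of either list. H3K27ac was met by 5 of the 10 H3K4me3 regions (18.7 to 81.3%), against 66.2% of the list, and the 5 without it were the narrow one of TAL1, both of LMO1 and 2 at LYL1. Of the 10 H3K27ac regions, 5 met MYC (18.7 to 81.3%, list 34.6%) and 4 met H3K4me3 (12.2 to 73.8%, list 23.2%). Of the 15 H3K4me1 regions, 4 met MYC (7.79 to 55.1%, list 15.9%) and 6 met H3K27ac (16.3 to 67.7%, list 50.4%). Apart from H3K4me3 with MYC of set D, the intervals in this paragraph include the share of the whole list. The intervals cover counting error only, and neighbouring regions of a locus are not independent.

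The MYC lists met at 1 place in each of the STIL, LMO2 and LYL1 windows and nowhere in the LMO1 window. Of the 7 set C regions, 3 met set D (9.90 to 81.6%), against 82.5% of the whole set C list, just above that interval. Since 4 of the 7 were neighbours in the LYL1 window, they are not independent. The intervals here cover counting error only and are not a test. Of the 5 set D peaks, 3 met set C (14.7 to 94.7%), against 45.1% of the list. H3K27ac was met by 4 of the 7 set C regions (18.4 to 90.1%), against 78.2%, and by 4 of the 5 set D peaks (28.4 to 99.5%), against 70.7%. The set C regions without H3K27ac were 2 at LYL1 and 1 at LMO1, and the set D peak without it was that of LMO1. LMO1 was the only window of the 5 in which MYC of both lists met H3K4me3 without H3K27ac.

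**Figure D5:**
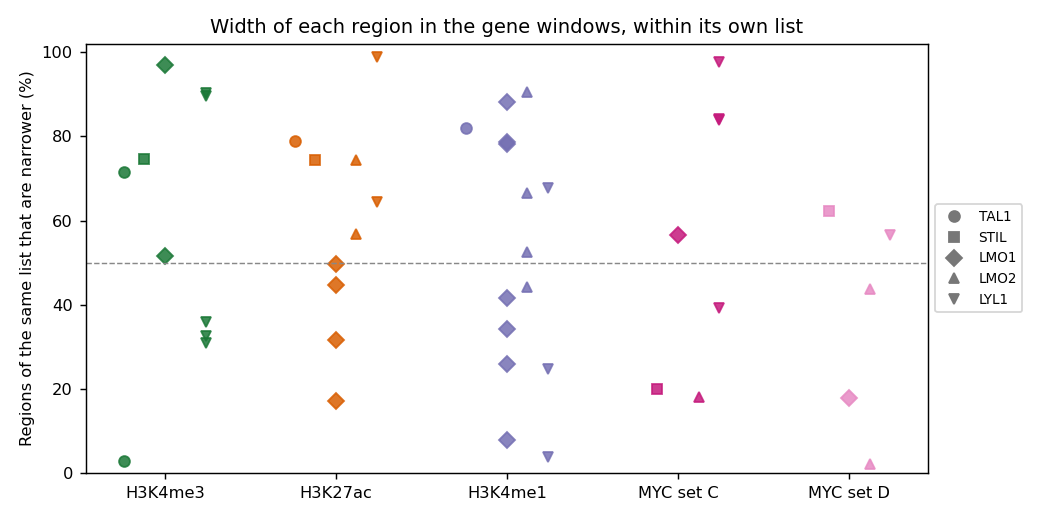
Percentage of regions of the same list that are narrower (y axis) for each region in the 5 windows, by list (x axis), with symbols for the genes and a dashed line at the middle of each list. LMO1 holds the highest H3K4me3 point at 96.9% and LYL1 the highest H3K27ac and MYC set C points at 98.9% and 97.6%.

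The window edges left few close cases except at LYL1, where windows 10 kb wider on each side held 24 regions, from 15. The nearest listed region outside LMO1 was an H3K4me1 region 0.8 kb below the edge (698 bp), and the first inside was 18.7 kb in. The nearest regions outside the LYL1 window were an H3K4me1 region of 179 bp at 1.44 kb below and an H3K4me3 region of 201 bp at 7.62 kb above. At TAL1, STIL and LMO2 nothing was listed within 10 kb outside an edge.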

How the data were processed

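The authors deposited lists of 4 columns with peak positions and no score, fold or p, and the build is hg19 per the submitters' processing notes. Per the file headers, MYCN peaks came from cutruntools at a q-value below 0.01, H3K4me3 from MACS2, the set C MYC regions from stringent SEACR calls and the set D MYC peaks from MACS2 without read pairing. The headers of both MYC lists name 1 shared signal track, and the labels give MYC of set D as its own control, so the lists may not be independent. For the H3K27ac and H3K4me1 lists the caller is not given in the sources used here, nor is the aligner for any list.

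Regions on chromosomes 1 to 22 and X were kept, and 161 others were left out. Regions meet where they share at least 1 bp. Width shares and ranks are within a list. Densities and stretches refer to the span between the first and last listed region of each chromosome. All 30 ordered pairs of lists gave the same overlap counts as bedtools 2.31.1, and 400 of 400 planted overlaps were recovered in simulated data. The software was scipy 1.17.1, numpy 2.4.6 and matplotlib 3.10.9 under Python 3.11.15.

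The members, windows and comparisons were chosen with earlier results of these data known. The rule for regions named was every H3K4me3, MYC and MYCN region in a window and the 3 widest H3K27ac and H3K4me1 regions, with exceptions stated. Planned counts over other genes of the complex and a protein comparison were not analysed here, since they need an hg19 annotation and a protein table. The alternatives tried are given in the closing section.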

Additional observations from a re-analysis of the deposited data

How the results depend on the processing

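Depth is unknown, and the cause of the shifts below was not tested. With windows 10 kb wider on each side the regions at LYL1 rose from 15 to 24, and the share of bases under any list was 3.11% at TAL1 (from 4.06%), 2.07% at STIL (2.63%), 6.22% at LMO1 (6.61%), 1.81% at LMO2 (2.07%) and 41.2% at LYL1 (73.6%). MYCN stayed at 0. With the wider regions of each list only, LMO1 held 6 regions, LMO2 5 and LYL1 9, and the covered shares were 3.78% at TAL1, 5.13% at LMO1, 1.93% at LMO2 and 65.6% at LYL1. In that setting for MYC, 3 H3K27ac and 2 H3K4me1 regions met it, from 5 and 4. Counted by centre, 2 of the 10 H3K4me3 regions lay in MYC, from 8 that touched it. MYC of set D alone, or of set C alone, left 3 and 7 H3K4me3 regions with MYC, 4 H3K27ac regions each time and 3 H3K4me1 regions each time. Without joining, the longest H3K4me3 region at LYL1 was 2671 bp, and joined within 3 kb it was 10148 bp, from 8134 bp, and then held the MYC peak of set D. H3K27ac joined within 5 kb gave 547 bp at LMO1 and 5830 bp at LYL1, and joined within 20 kb it gave 21332 bp at STIL, 30300 bp at LMO1 and 137115 bp at LYL1. The other counts stayed within 1.5 times of the main value.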
